A study of Rattus norvegicus with 2 samples.

Results

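The genes of the amino acid stress response that the transcription factors ATF4 and CHOP drive were compared between 2 Affymetrix arrays of AT6.1 cells, which are a long-established line of rat prostate cancer. The Ndrg-1 group is 1 array of 1 clone transfected with pcDNA3 into which N-myc downstream regulated gene-1 was inserted, and the vector group is 1 array of 1 clone with pcDNA3 and no insert. Both clones were cultured in RPMI with 10% fetal calf serum, 0.1 mM added non-essential amino acids, 110 µg/mL sodium pyruvate and 0.3 mg/mL of the selection drug G418. With 1 array per group there is no replicate error and no test, and clone, culture and array cannot be told apart from the insert. The 32 genes were picked by symbol, and they were chosen on earlier results of these same arrays, so their ratios are a description. Each had a probe set annotated to it alone, among 14217 genes on the array.

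Cells short of an amino acid, or with unfolded protein in the endoplasmic reticulum (ER), activate kinases that phosphorylate the initiation factor eIF2. General translation then slows while ATF4 is made more efficiently from its existing mRNA. ATF4 pairs with C/EBP proteins and induces genes for amino acid uptake and synthesis, tRNA charging and redox balance, together with CHOP, ATF3 and the feedback regulators that end or redirect the response. Tumour cells are known to use the pathway to withstand poor nutrient supply. Because ATF4 is controlled largely in translation, its mRNA level is a poor guide to its activity.

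The values are deposited probe set signals on a linear scale. A gene is represented by its brightest probe set, and a signal under 31.0, the median of all signals, is set to that floor. Ratios are log2 of the Ndrg-1 array over the vector array after the median ratio of the brighter probe sets was set to 0. The only error the table offers is the disagreement between probe sets of 1 gene, with an SD of 0.23 on the log2 scale over 2298 genes. Differences between cultures, between clones and between arrays are not part of it, and 23 of the 32 genes have a single probe set and no such check.

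The group stood slightly higher in the Ndrg-1 array, with a few transcription factors, a phosphatase subunit and a lipoprotein receptor well above the rest. Of the 32 genes, 31 exceeded the floor in 1 array or both, and 26 of these had a log2 ratio above 0, against 50.4% of all 9183 genes measured. The median log2 ratio was 0.25, against 0.0029 for all measured genes. Vldlr and Atf3 reached 2-fold higher, where 1.62% of all measured genes did, and 0 members reached 2-fold lower, where 1.5% of all did. At 1.5-fold, 6 members were higher and 0 lower, against 5.56% and 5.18% of all measured genes. Above 2 SD of the disagreement between probe sets (0.46 on the log2 scale) lay 8 members and below it 0, against 8.55% and 8.34% of all. Most of the 31 genes, 23, lay within that range. Since the choice of genes used this contrast, the shares are printed side by side and nothing further is read from them.

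**Figure D1:**
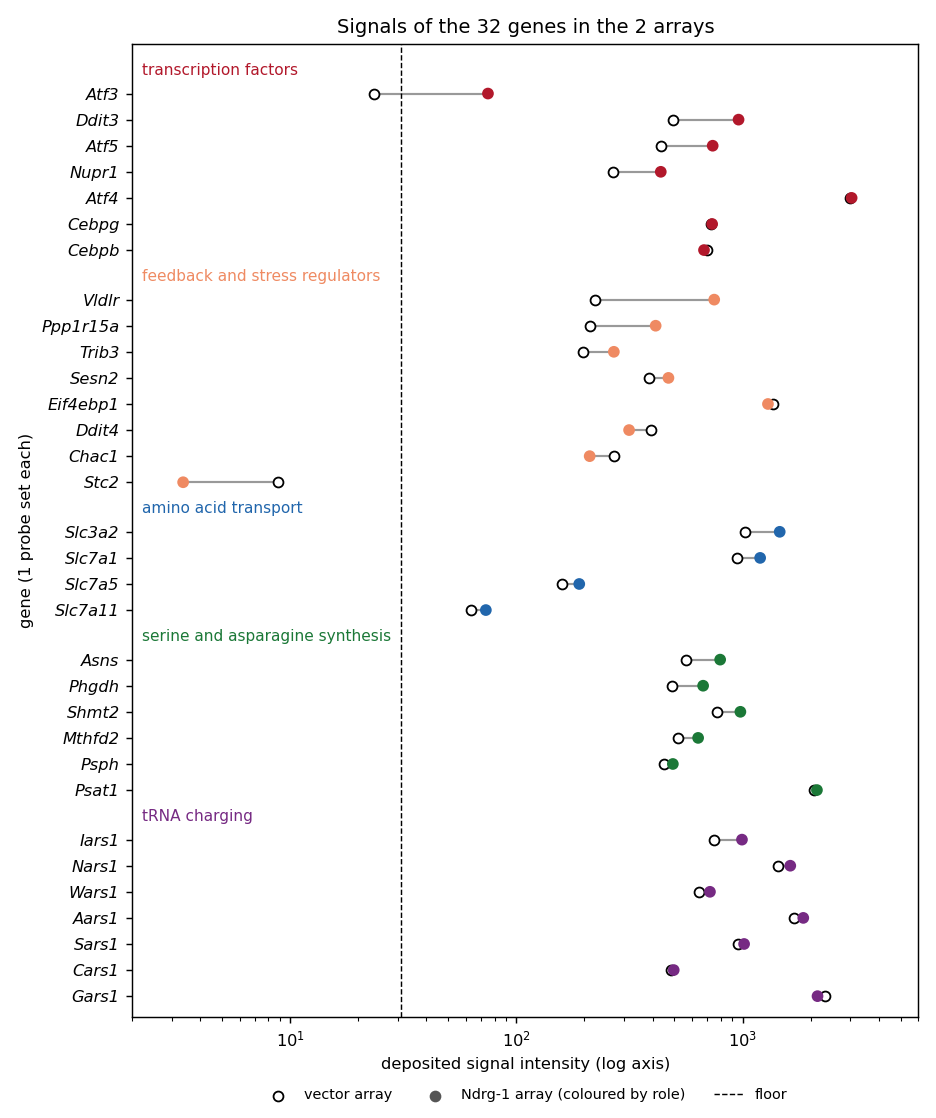
Deposited signal of each of the 32 genes (log axis) in the vector array (open points) and the Ndrg-1 array (filled points, coloured by role), with the floor as a dashed line. The widest gap above the floor is that of Vldlr at 750 against 222, Stc2 lies under the floor in both arrays, and Atf4 is nearly the same in both at 3038 and 2976.

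Among the transcription factors, 4 of 7 were past 1.5-fold with the higher signal in the Ndrg-1 array and the other three were level. Ddit3, which encodes CHOP, a pro-apoptotic C/EBP family member, had signals of 960 (Ndrg-1) and 492 (vector), a 1.95-fold difference (log2 ratio 0.96). Atf3, a stress-induced repressor and activator of the same basic leucine zipper class, was at 74.8 against 23.4. Its vector signal lies under the floor, so the gene was at least 2.42-fold higher. Atf5, a close relative of Atf4 that is also translated preferentially under stress, was at 738 against 437 (1.68-fold, log2 ratio 0.75). Nupr1, a small stress-induced chromatin protein, was at 435 against 268 (1.62-fold, log2 ratio 0.70). All 4 were higher in every alternative setting that measured them, and only a floor at the 75th percentile left Atf3 unmeasured. At the floor used here Atf3 was measured only through the array in which it was high.

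Atf4 itself had signals of 3038 (Ndrg-1) and 2976 (vector), giving a log2 ratio of 0.03 that ranged from -0.19 to 0.57 over the settings. It turned below 0 only when the arrays were scaled to the poly-A spikes. The highest signal on the array was 4795 for Ndrg-1 and 6446 for vector, and the brightest genes had ratios below 0 as a body (given further on). Quantile normalization put Atf4 at 0.27, and removal of the trend of ratio on signal put it at 0.26. The C/EBP partners were level at the scaling used here and changed little in those settings. Cebpg, a dimer partner of ATF4, was at 734 against 729, with a further probe set at -0.05, so that its sign turned with the setting. Cebpb, a C/EBP activator that also responds to amino acid lack, was at 675 against 696, a log2 ratio of -0.05 that turned to 0.50 when scaled to the hybridisation spikes. At the scaling used here, the Atf4, Cebpg and Cebpb mRNAs were thus level where Ddit3, Atf3, Atf5 and Nupr1 were higher.

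For reference, the 250 bases before the RefSeq transcription start are printed for the members at least 1.5-fold higher that have a promoter entry (assembly GRCr8), since their ratios are the highest of the members with an entry. Atf3 is named only. Capitals mark a match to TGATGNAA, the core of the C/EBP-ATF response element (CARE) that ATF4 dimers bind, or to the cyclic AMP response element TGACGTCA (CRE). Among the 3 transcription factors below, only Nupr1 has a match, a CARE core read on the opposite strand.
Ddit3 (chr7:65001445-65001694, + strand): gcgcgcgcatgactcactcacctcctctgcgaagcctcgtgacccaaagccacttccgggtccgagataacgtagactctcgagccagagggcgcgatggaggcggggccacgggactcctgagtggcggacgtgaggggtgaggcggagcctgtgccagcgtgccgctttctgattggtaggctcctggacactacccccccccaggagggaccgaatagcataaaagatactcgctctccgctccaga
Atf5 (chr1:104434796-104435045, - strand): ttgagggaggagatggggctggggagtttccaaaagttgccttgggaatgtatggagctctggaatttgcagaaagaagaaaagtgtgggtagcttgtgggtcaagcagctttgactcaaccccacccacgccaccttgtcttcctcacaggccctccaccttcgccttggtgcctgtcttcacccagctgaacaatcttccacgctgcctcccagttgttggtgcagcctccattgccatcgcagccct
Nupr1 (chr1:190645902-190646151, - strand): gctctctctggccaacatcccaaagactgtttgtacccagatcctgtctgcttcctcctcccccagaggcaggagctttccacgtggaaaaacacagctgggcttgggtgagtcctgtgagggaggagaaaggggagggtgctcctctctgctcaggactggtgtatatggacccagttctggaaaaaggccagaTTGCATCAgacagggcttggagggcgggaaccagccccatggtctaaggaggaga

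The feedback and stress regulators were the most mixed group, with 4 of 7 measured genes above 0 and 3 below, and a median log2 ratio of 0.29. Vldlr, the very low density lipoprotein and reelin receptor, had the highest ratio of all members. Its brightest probe set was at 750 for Ndrg-1 and 222 for vector (3.36-fold, log2 ratio 1.75), a ratio exceeded by 0.403% of measured genes. The other probe sets were at 617 against 202, 217 against 73.5 and 132 against 69.6, with log2 ratios of 1.60, 1.56 and 0.91. All 4 probe sets were thus higher in the Ndrg-1 array, the dimmest by the least. Ppp1r15a encodes GADD34, which directs protein phosphatase to eIF2 and so ends the translational block. It was at 413 against 213 (1.94-fold, log2 ratio 0.95). Trib3, a pseudokinase induced by ATF4 and CHOP that restrains both, was at 270 against 198 (log2 ratio 0.44). Its other probe sets were at 288 against 181 and 242 against 137, with log2 ratios of 0.66 and 0.82. The brightest Trib3 probe set has an _s_at identifier, given to probe sets that can match more than 1 transcript, and without such probe sets the gene moved to 0.82.

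The other 4 measured regulators lay on both sides of 0. Chac1, a glutathione-degrading enzyme that is a usual marker of ATF4 and CHOP activity, was at 211 with Ndrg-1 against 269 with the vector, a log2 ratio of -0.36. Ddit4, an mTORC1 inhibitor induced by stress and low oxygen, was at 315 against 395 (log2 ratio -0.33). Eif4ebp1, the translation repressor that mTORC1 phosphorylates, was at 1296 against 1366 (log2 ratio -0.08). These 3 turned above 0 only when scaled to the hybridisation spikes. Sesn2, a leucine-binding mTORC1 inhibitor, was at 470 against 384 (log2 ratio 0.29), but its dimmer probe set was at 81.9 against 84.8 (log2 ratio -0.06). Stc2, a secreted glycoprotein, was under the floor in both arrays, at 3.36 and 8.79, and could not be compared.

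The upstream sequences of the pair of regulators past 1.5-fold hold a CRE match in Ppp1r15a and no match to either motif in Vldlr.
Ppp1r15a (chr1:105139597-105139846, - strand): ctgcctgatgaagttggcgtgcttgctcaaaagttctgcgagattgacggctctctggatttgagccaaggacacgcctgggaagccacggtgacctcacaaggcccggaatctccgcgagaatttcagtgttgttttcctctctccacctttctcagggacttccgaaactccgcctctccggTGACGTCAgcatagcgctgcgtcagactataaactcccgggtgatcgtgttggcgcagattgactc
Vldlr (chr1:234240436-234240685, + strand): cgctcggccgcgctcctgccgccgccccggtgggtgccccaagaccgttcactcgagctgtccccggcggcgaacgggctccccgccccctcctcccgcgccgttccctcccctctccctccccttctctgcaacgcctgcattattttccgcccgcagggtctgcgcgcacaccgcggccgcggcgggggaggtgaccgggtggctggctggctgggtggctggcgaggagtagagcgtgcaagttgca

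**Figure D2:**
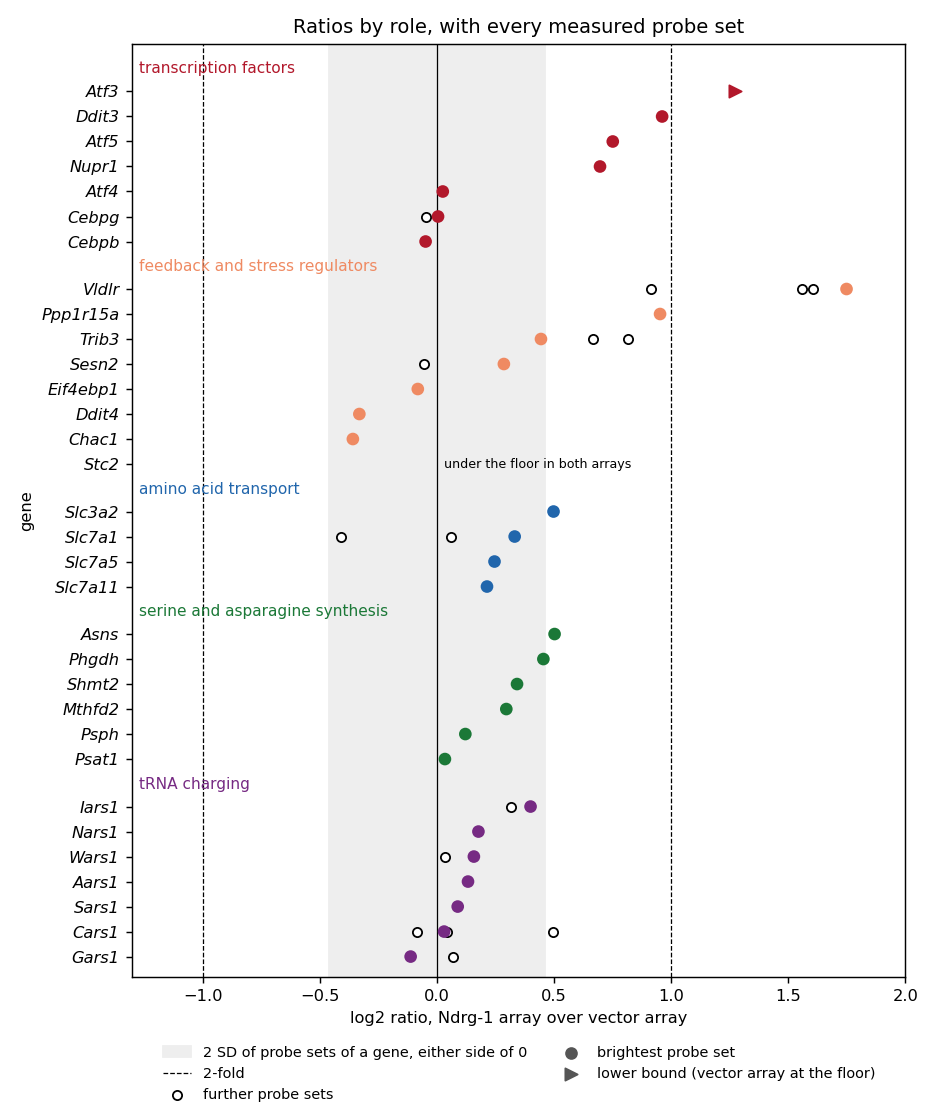
Log2 ratio of each member (Ndrg-1 array over vector array), grouped by role, with the brightest probe set filled and the further measured probe sets open. The grey band spans 2 SD of the disagreement between probe sets (0.46) either side of 0 and the dashed lines mark 2-fold; Vldlr, Atf3, Ddit3, Ppp1r15a, Atf5, Nupr1, Asns and Slc3a2 lie to the right of the band and no brightest probe set lies to its left.

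All 4 amino acid transport genes had ratios above 0, and 0 reached 1.5-fold; Slc7a11 alone turned below 0 in a setting, to -0.00082 with poly-A spike scaling. Slc3a2 encodes the heavy chain that carries several light chain transporters to the cell surface, and was at 1460 against 1031 (1.41-fold, log2 ratio 0.50). Of the light chains, Slc7a5 imports leucine and other large neutral amino acids and was at 190 against 159 (log2 ratio 0.25). Slc7a11, the cystine-glutamate exchanger that feeds glutathione synthesis, was at 73.2 against 62.9 (log2 ratio 0.21). The heavy chain therefore had the highest ratio of the 4 genes, and every light chain ratio lay within 2 SD of probe set disagreement. Slc7a1, a carrier of arginine and lysine that works without the heavy chain, was at 1197 against 947 (log2 ratio 0.33). Its other probe sets disagreed, at 836 against 799 (log2 ratio 0.06) and 38.2 against 50.6 (log2 ratio -0.41).

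Serine, glycine and asparagine synthesis was represented by 6 genes, all above 0, with a median log2 ratio of 0.32 and 0 at 1.5-fold. Asns, the asparagine synthetase that is the classic amino acid response gene, was at 796 for Ndrg-1 and 560 for vector (1.42-fold, log2 ratio 0.50). Phgdh, which catalyses the first step of serine synthesis, was at 669 against 487 (log2 ratio 0.45). The later steps were nearer level. Psat1, the aminotransferase, was at 2134 against 2076 (log2 ratio 0.03) and Psph, the phosphatase that releases serine, at 492 against 451 (log2 ratio 0.12). Both turned below 0 when scaled to the poly-A spikes. Psat1 rose to 0.17 with quantile normalization and to 0.20 with the trend of ratio on signal removed, where Phgdh was at 0.44 in each. Of the mitochondrial enzymes that pass serine carbon into folate, Shmt2 was at 978 against 769 (log2 ratio 0.34) and Mthfd2 at 636 against 516 (log2 ratio 0.30).

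The tRNA charging genes stood closest to the median gene, with a median log2 ratio of 0.13 that turned to -0.08 when scaled to the poly-A spikes. These cytosolic synthetases attach 1 amino acid each to its tRNA. Iars1 (isoleucine) was the highest, at 994 against 751 (1.32-fold, log2 ratio 0.40), and a dimmer probe set gave at least 0.31. Nars1 (asparagine) was at 1626 against 1433 (log2 ratio 0.18), Wars1 (tryptophan) at 718 against 641 (0.16) and Aars1 (alanine) at 1857 against 1688 (0.13). Sars1 (serine) was at 1016 against 952 (0.09) and Cars1 (cysteine) at 496 against 484 (0.03). Gars1 (glycine) alone was lower, at 2146 against 2312 (log2 ratio -0.11), with a second probe set at 0.07 and a sign that turned when the trend on signal was removed. All 7 synthetases lay within 2 SD of probe set disagreement, and the 3 further probe sets of Cars1, at -0.09, 0.04 and 0.50, spanned a wider range than the genes did among themselves.

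Across roles, the transcription factors had the highest median log2 ratio, 0.70, followed by serine and asparagine synthesis (0.32), transport and the regulators (both 0.29) and tRNA charging (0.13). The first is split between 4 factors from 0.70 upwards and 3 from -0.05 to 0.03, so its median marks the edge of the upper set. In all, 15 further probe sets of 9 members were measured. Of these, 10 had the sign of the brightest probe set and 12 lay within 2 SD of it, the exceptions being the dimmest ones of Vldlr, Slc7a1 and Cars1.

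The ratio depends on brightness in these arrays, and the members are bright. Of the 31, 19 lay in the brightest of 4 equal bins of measured genes by signal and 9 in the next. In the brightest bin the median log2 ratio was -0.06 for all genes and 0.18 for the 19 members, of which 16 were above 0 against 40.9% of all genes there. At least 1.5-fold higher were 2 of these members against 1.22% of all genes of that bin, and 3 of the 9 in the next against 3.40%. As the members were chosen on earlier results of these same arrays, the shares within bins are a description too. With the trend of ratio on signal removed, the median of the members was 0.26 and 6 were again at least 1.5-fold higher, against 5.22% of all genes.

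**Figure D3:**
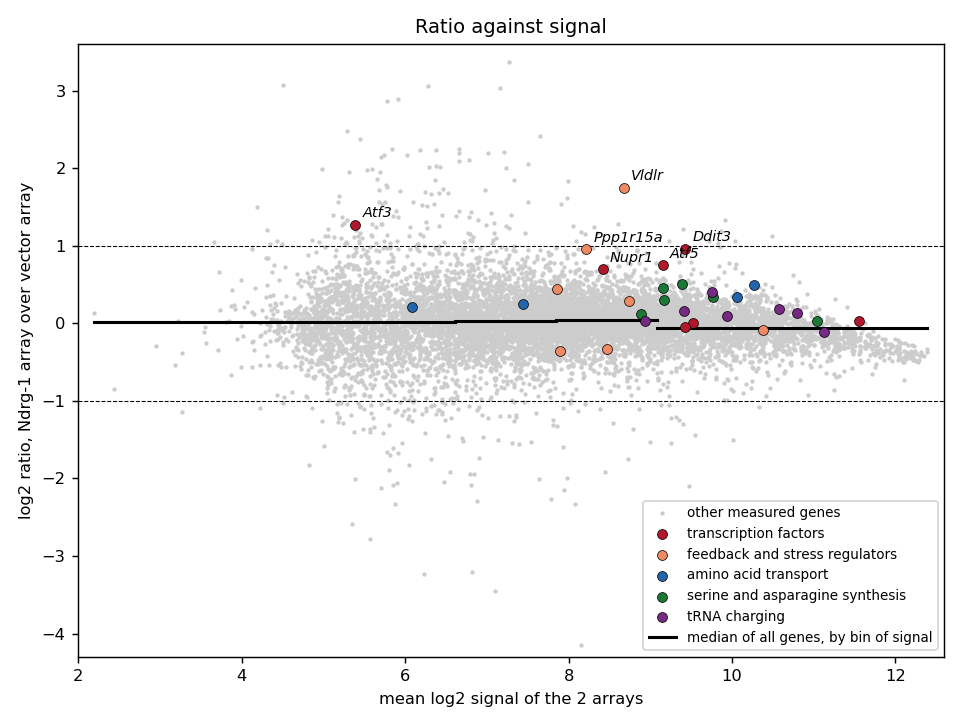
Log2 ratio (Ndrg-1 array over vector array) against the mean log2 signal of both arrays for the measured genes (grey) and the members (coloured by role); black bars give the median of all genes in each of 4 bins of signal and dashed lines mark 2-fold. The cloud bends below 0 at high signal, with a median of -0.06 in the brightest bin. Of the 19 members there, which were chosen on earlier results of these arrays, 16 lie above 0.

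Other genes of the pathway, from lists of 8 functions, were mostly level. The eIF2 kinases and initiation factors had a median log2 ratio of 0.02 over 15 genes, with 0 at 2-fold. They ran from Ppp1r15b (-0.15), the constitutive counterpart of GADD34, to Impact (0.43), an inhibitor of the amino acid sensing kinase GCN2. The 4 kinases were at 0.05 for Eif2ak1, which senses heme, 0.23 for Eif2ak2 (viral RNA), -0.07 for Eif2ak3 (ER stress) and 0.02 for Eif2ak4, which encodes GCN2. Scaling to the hybridisation spikes moved the median of all genes to 0.53 and scaling to the poly-A spikes to -0.21. Ratios between -0.54 and 0.21 in these lists change sign under one or the other. Of 15 other amino acid transporters, 7 were above the floor and 0 reached 2-fold (median -0.02). Slc7a6, another partner of the Slc3a2 heavy chain, was highest at 519 against 385 (log2 ratio 0.43), and Slc1a3, a glutamate carrier, lowest at 32.8 against 48.3 (-0.56). The other cytosolic synthetases (12 genes) had a median of 0.09 from Qars1 (-0.41) to Vars1 (0.37), and the mitochondrial synthetases (12 genes) one of 0.04 from Aars2, at -0.14 or lower with the Ndrg-1 array at the floor, to Hars2 (0.45). In both lists 0 genes reached 2-fold. Other one-carbon and amino acid enzymes had a median of 0.11 over 13 genes, from Pck2 (-0.53), the mitochondrial PEP carboxykinase, to Mthfs (0.44), with 0 at 2-fold.

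Further ATF4 and CHOP targets had a median of 0.20, with 8 of 11 above 0 and 1 at 2-fold. This was Gadd45a, a growth arrest gene, at 608 against 249 (2.44-fold). Among 16 genes listed as other basic leucine zipper factors, Cebpz among them by its name only, the median was 0.04. Fos, the immediate early factor, was at 137 against 19.6, the latter under the floor, at least 4.43-fold higher. Atf2, which was noted after its values were seen, was at 120 against 60.4 (1.99-fold). The ER chaperone and folding genes controlled by ATF6 and XBP1, the other arms of the unfolded protein response, had a median of -0.0016 over 19 genes, with 9 above 0. Only Dnajb9, an ER co-chaperone, reached 2-fold among them, at 440 against 197 (2.23-fold). The median of the 31 amino acid stress genes was 0.25 beside it. With 1 array per group the difference between the lists was not tested.

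**Figure D4:**
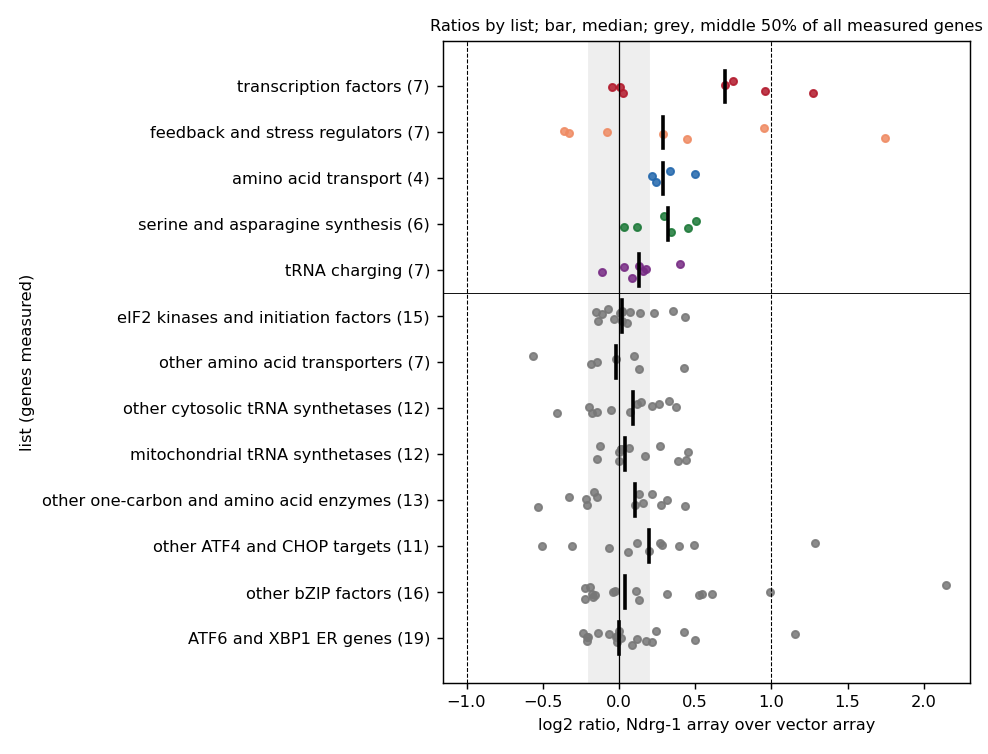
Log2 ratio (Ndrg-1 array over vector array) of each measured gene in the 5 role groups (coloured) and the 8 other lists of the pathway (grey points), with the median of each list as a black bar and the middle 50% of all measured genes (-0.20 to 0.20) as a grey band. The transcription factor median (0.70) lies right of the band, as do those of the regulators, transport and synthesis groups, and that of the ATF6 and XBP1 list (-0.0016) lies in its middle.

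The promoter entries of the members were searched for the CARE core on both strands. The windows run from 250 bases before to 50 after the RefSeq start, and 29 of the 32 genes have one. A match was found in 8 of the 29, or 27.6%, beside 3.98% of all 33469 windows and 156 of the 7795 measured genes with a window. The match is a description of letters and not a binding site. For 7 of the 8 genes, 30 bases around the match are written on the strand that reads TGATGNAA, with the match in capitals, to show the free base of the core and its flanks (GRCr8).
Nupr1 (chr1:190645938-190645967): caagccctgtcTGATGCAAtctggcctttt
Iars1 (chr17:15193658-15193687): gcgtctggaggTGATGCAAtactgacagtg
Nars1 (chr18:60275778-60275807): cctaggtgatcTGATGCAAcgcttcagtca
Cars1 (chr1:208225334-208225363): tttccagaatcTGATGCAAccgcggcgccg
Chac1 (chr3:126795953-126795982): cctagcaggagTGATGCAAcggcggagaag
Slc7a1 (chr12:11664447-11664476): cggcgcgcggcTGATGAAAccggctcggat
Trib3 (chr3:161275536-161275565): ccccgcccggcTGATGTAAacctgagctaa

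In these 7 genes the core read TGATGCAA in Nupr1, Iars1, Nars1, Cars1 and Chac1, TGATGAAA in Slc7a1 and TGATGTAA in Trib3. Their matches began from 167 bases before the start in Chac1 to 18 bases after it in Cars1, and those of Trib3, Iars1, Slc7a1 and Nars1 lay 14 to 30 bases before it. By role, the tRNA charging genes held the core in 4 of 6 windows, the other cytosolic synthetases in 3 of 11 (Mars1, Tars1 and Yars1) and the mitochondrial synthetases in 0 of 13. The 6 serine and asparagine synthesis genes held 0 in this window.

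The median log2 ratio was 0.25 for the 8 with a match and 0.27 for the 20 measured members without. The 8 genes ranged from Chac1 at -0.36 to Nupr1 at 0.70, while Vldlr, Ddit3 and Ppp1r15a had none in these windows. Of 436 measured genes 1.5-fold or more higher with Ndrg-1, 2.29% held the core, beside 2.09% of the 382 correspondingly lower and 1.98% of those between. The CRE was found in 1 of the 29 members, Ppp1r15a, and in 1.83% of all windows. The ER stress response element (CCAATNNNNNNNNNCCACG) was found in 0 of the 29 and in 0.0657% of all windows.

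**Figure D5:**
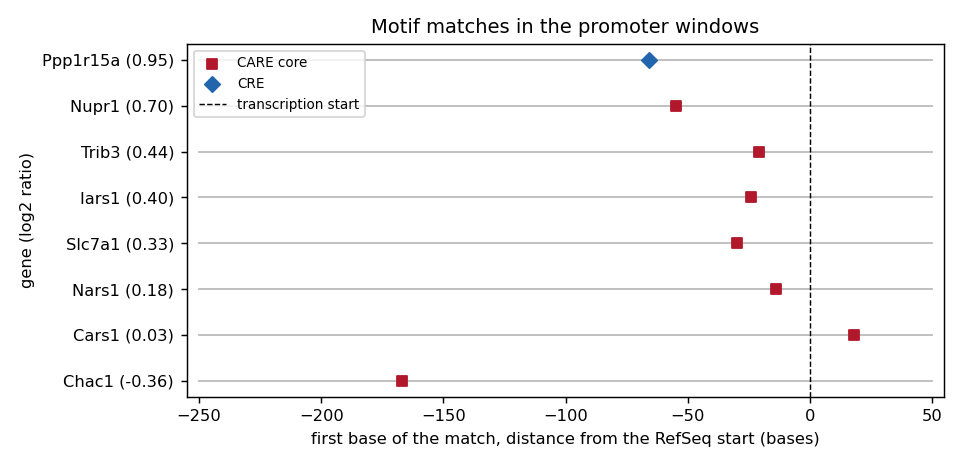
Position of each match in the promoter windows of 8 members (the 7 genes with the CARE core printed in the text, and Ppp1r15a), as the distance of its first base from the RefSeq start, with the log2 ratio of the gene (Ndrg-1 array over vector array) beside its name; squares, CARE core; diamond, CRE. Genes are ordered by ratio, and the CARE core occurs from Nupr1 (0.70) down to Chac1 (-0.36).

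Several facts of the arrays as a whole bear on these values. The Ndrg1 probe sets differed little, the brighter at 1353 against 1062 (log2 ratio 0.34) and the dimmer at 154 against 181 (-0.24). The sample title describes the Ndrg-1 cells as over-expressing Ndrg-1. Whether these probe sets detect the inserted sequence is not known, so the over-expression cannot be judged from them in either direction. The 18 hybridisation spike probe sets had a median log2 ratio of -0.54 and the 24 poly-A spikes one of 0.21. Scaling to the former put all 31 members above 0, with 8 at 2-fold, while 93.8% of all genes were above 0 too and 7.58% were at least 2-fold higher. Scaling to the latter left 16 above 0, beside 24.0% of all genes. The 3' to 5' ratio of Actb was 1.21 and 1.24. All 3 Actb and all 3 Gapdh control probe sets were lower in the Ndrg-1 array, with median log2 ratios of -0.38 and -0.45. Epithelial markers were above the floor for 1 of 8 genes (Krt8, 38.7 and 46.2), with Cdh1, Epcam and Krt18 under it. Most epithelial markers were thus under the floor in this prostate cancer line. Of 3 prostate and androgen markers on the array, 1 was above it, in the Ndrg-1 array only (Tmprss2, 35.4 and 18.7). Pbsn and Hoxb13 were under it. For mesenchymal markers, 5 of 7 were above it, Vim among them. Among the mesenchymal markers, Col1a1, a collagen chain, was at 167 against 76.9 (2.16-fold higher with Ndrg-1) and Thy1 was 1.54-fold higher. Vim was lower with Ndrg-1, at 4344 against 5798 (log2 ratio -0.42), and Col1a2 (0.09) and Acta2 (-0.01) were level. Leukocyte markers were above the floor for 3 of 7 (summed signals 479 and 502, Ptprc at 2.72 and 3.25). Cd68 was 1.80-fold higher with Ndrg-1 and Cd14 was 1.47-fold lower. Csf1r was also lower (log2 ratio -0.11 or lower, with the Ndrg-1 array at the floor). Endothelial markers were above the floor for 0 of 5. Neural markers were above the floor for 4 of 6 (summed signals 971 and 1241). Map2, a neuronal microtubule protein, was at 126 against 503 (4.0-fold lower with Ndrg-1) and Syp was 1.58-fold lower. Eno2 was higher with Ndrg-1 (log2 ratio 0.20), as was Tubb3 (at least 0.15, with the vector array at the floor). The part of these markers in the ratios of the members was not tested.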

How the data were processed

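RNA from 2 clones of AT6.1 cells was measured on 1 Affymetrix array each, and samples were grouped by the labelled insert. The authors deposited 1 intensity (linear probe set signal) per probe set and array, with GCOS 1.3 listed in the submitters' processing notes; its summary method, scaling and detection calls are not stated there. The number of arrays limits the precision. The 57 control probe sets were set apart, and 20826 probe sets carried 1 gene symbol, 436 several and 9780 none in the platform annotation; 20758 of the first matched a RefSeq gene ID of GRCr8.

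The vector array was shifted by 0.0048 on the log2 scale, so that probe sets brighter than the median probe set had a median ratio of 0. Signals were then floored at 31.0, and the brightest probe set represented a gene. No test was run. Counts at 2-fold and 1.5-fold are set beside the share of all measured genes. All members are named, and of each other pathway list the genes at 2-fold, up to 4 per direction, or else the highest and lowest. The members, their roles and all lists were chosen with earlier results of these data known. The gene summary was tested on simulated data. Promoter sequences are RefSeq's (GRCr8); the array table names no build. The sequence and position of 1 promoter match are not reported here. The 10 alternatives are described in the closing section. Python 3.11.15 was used with pandas 2.3.3, numpy 2.4.6 and statsmodels 0.14.6.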

Additional observations from a re-analysis of the deposited data

How the results depend on the processing

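The count of members at 2-fold, 2, was also 2 under 8 of the 10 alternatives: quantile normalization, no rescaling, scaling to the poly-A spikes, removal of a lowess trend, a floor at the 25th percentile, a pseudocount of 16 without a floor, a median over probe sets, and no _x_at or _s_at probe sets. It was 8 when scaled to the hybridisation spikes, where 7.58% of all genes were at least 2-fold higher. It was 1 with the floor at the 75th percentile, where 0.400% were and Atf3 lies under the floor in both arrays. The same count of 2 stood beside differing shares of all genes. At least 2-fold higher were 1.1985% when scaled to the poly-A spikes and 3.63% with the floor at the 25th percentile. At least 2-fold lower were 2.72% and 3.77% in these settings. Scaling to the hybridisation spikes, which adds 0.54 to every log2 ratio of genes above the floor, moved the median of all members to 0.79, of transcription factors to 1.24, of regulators to 0.83, of transport to 0.83, of serine and asparagine synthesis to 0.86 and of tRNA charging to 0.68. The floor at the 75th percentile put the transcription factors at 0.36, since Atf3 is left out. The median of all members less that of all genes ranged from 0.17 (median over probe sets) to 0.26 over the alternatives, hybridisation spikes included. Scaled to the poly-A spikes, which moved the median of all genes to -0.21, 10 members changed sign, all of them from 0.21 or less: Atf4, Cebpg, Slc7a11, Psat1, Psph, Aars1, Wars1, Sars1, Cars1 and Nars1. Apart from spike scaling, Atf3 moved to 1.67 (floor at the 25th percentile), Atf4 to 0.27 (quantile normalization), Trib3 to 0.82 (no _s_at probe sets) and Slc7a1 to 0.06 (median over probe sets). No paired analysis was possible because each group has 1 array.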
